A study of Homo sapiens with 16 samples.

Results

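KLHDC7B, ST6GALNAC3, PIP5KL1, ANKFN1 and SEL1L3 are 5 little-studied genes, of 35106 gene rows in the table, chosen by their large rise in MDA-MB-231 cells given MitoQ and by having no place in the usual lists of stress genes. Because they were selected on that contrast, their values in MDA-MB-231 are a description and carry no test. RNA was sequenced from human breast cancer lines in 16 libraries. MitoQ is a ubiquinone tethered to a lipophilic cation that drives it into mitochondria. MDA-MB-231, a triple-negative line with mesenchymal traits, was at passage 25 and gave 5 control libraries and 5 from cells given 500 nM MitoQ for 48 h. SKBR3, a line with an amplified ERBB2 gene, was at passage 10 and gave 3 control libraries and 3 from cells given the same dose for the same time. The column names of the SKBR3 controls carry 48 h. How control cells were otherwise handled is not stated in the labels, and line and passage cannot be told apart. Whether replicates came from separate cultures was not given either, so p-values measure the spread between these libraries, which may be technical.

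The 5 genes belong to families with known chemistry, although most of them have been little studied themselves. KLHDC7B carries kelch repeats, which fold into a propeller that binds other proteins, often in ubiquitin ligases. ST6GALNAC3 is a Golgi sialyltransferase that adds sialic acid to the N-acetylgalactosamine of gangliosides and O-glycans. PIP5KL1 resembles the kinases that make phosphatidylinositol 4,5-bisphosphate, a membrane lipid of signalling and trafficking, and is known as a poor kinase that binds the active ones. ANKFN1 has ankyrin repeats and a fibronectin domain and is related to the fly protein Wide awake, which links the circadian clock to sleep. SEL1L3 is a membrane protein with Sel1-like repeats, named after SEL1L, the partner of the HRD1 ubiquitin ligase in endoplasmic reticulum-associated degradation (ERAD).

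The genes lie on 5 chromosomes (GRCh38, GENCODE release 29), and each is protein-coding. KLHDC7B (ENSG00000130487) spans chr22:50545891-50551023 on the plus strand, and its transcripts merge into 1 exon of 5133 bases. ST6GALNAC3 (ENSG00000184005) spans chr1:76074719-76634601 on the plus strand with 7 merged exons. PIP5KL1 (ENSG00000167103) spans chr9:127920879-127930797 on the minus strand with 11 merged exons. ANKFN1 (ENSG00000153930) spans chr17:55882301-56511659 on the plus strand with 41 merged exons. SEL1L3 (ENSG00000091490) spans chr4:25747427-25863760 on the minus strand with 29 merged exons. No annotated exon of another gene shared a base with theirs, although SMIM20 and an antisense gene overlap SEL1L3 on the opposite strand. Of the 31-base stretches of PIP5KL1 transcripts, 2.93% also occurred in transcripts of other genes, and for the other 4 genes the share was at most 0.026%.

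Promoter sequence is shown because the 5 genes rose together in MDA-MB-231 while 2 of them had almost no counts in SKBR3. SEL1L3 is left out because the stretch before its first RefSeq start holds bases of an annotated exon. RefSeq (GRCh38.p14) gave promoters, 250 bases before to 50 after a start, for all 5 genes. They were searched on both strands for TGATGNAA (the core of the C/EBP-ATF response element), TGACNNNGC (the core of the antioxidant response element), TGANTCA (the AP-1 site), the core of the interferon-stimulated response element and CACGTG (the E-box). The stretches below run from 250 to 51 bases before the start, 5′ to 3′ on the strand of the gene, and capitals mark a match. They come from chr22:50545649-50545848 (plus strand), chr1:76074496-76074695 (plus), chr9:127930828-127931027 (minus) and chr17:56153225-56153424 (plus).
KLHDC7B: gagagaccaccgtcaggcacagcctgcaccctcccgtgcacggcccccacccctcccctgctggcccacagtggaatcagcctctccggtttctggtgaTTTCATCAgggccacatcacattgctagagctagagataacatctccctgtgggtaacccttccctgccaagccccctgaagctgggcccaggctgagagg
ST6GALNAC3: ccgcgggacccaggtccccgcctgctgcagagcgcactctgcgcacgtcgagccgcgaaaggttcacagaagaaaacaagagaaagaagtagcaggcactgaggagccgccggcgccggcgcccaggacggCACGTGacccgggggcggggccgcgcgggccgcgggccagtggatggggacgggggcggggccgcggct
PIP5KL1: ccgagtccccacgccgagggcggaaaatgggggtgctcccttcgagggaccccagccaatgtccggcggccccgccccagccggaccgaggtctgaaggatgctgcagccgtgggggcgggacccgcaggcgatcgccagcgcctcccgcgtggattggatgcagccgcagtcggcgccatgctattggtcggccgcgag
ANKFN1: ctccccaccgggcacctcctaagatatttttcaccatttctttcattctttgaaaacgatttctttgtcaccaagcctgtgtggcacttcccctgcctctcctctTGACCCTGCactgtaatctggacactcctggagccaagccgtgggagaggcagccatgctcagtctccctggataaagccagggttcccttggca

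KLHDC7B held TTTCATCA, a C/EBP-ATF core read on the opposite strand, whose first base lay at -151 from the start. That motif occurred in 3.62% of 35116 RefSeq promoters of the same length. ST6GALNAC3 held an E-box at -119, a motif found in 7.26% of promoters. ANKFN1 held TGACCCTGC, an antioxidant response element core, at -145, a motif found in 13.35% of promoters. The ANKFN1 start in RefSeq lies inside the span that GENCODE gives the gene. The AP-1 site (7.71% of promoters) and the interferon-stimulated core (3.57%) matched none of the 5 genes, and no motif matched in PIP5KL1 or SEL1L3. A match is a description of the letters and not evidence of binding. The promoters differed in base composition, with 54.3% G and C in ANKFN1, 59.7% in KLHDC7B, 72.0% in ST6GALNAC3, 74.3% and 70.0% in the promoters of PIP5KL1 and 63.0% and 83.0% in those of SEL1L3, beside a median of 58.7% over all promoters. The ratio of observed to expected CpG was 0.19 in KLHDC7B and 0.33 in ANKFN1, below the median of 0.58, and above it in ST6GALNAC3 (0.92), PIP5KL1 (0.85 and 0.62) and SEL1L3 (0.61 and 0.88).

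The libraries held 14723152 to 29294865 estimated counts, so that 0 counts in the shallowest library left room for 0.204 CPM (CPM, counts scaled to the library size). Line markers matched the labels: ERBB2 lay at 5351 CPM in SKBR3 controls and 53.9 CPM in MDA-MB-231 controls, and VIM at 0.181 and 3390 CPM. The 6 leukocyte markers summed to 3.58 CPM in MDA-MB-231 controls and 2.58 CPM with MitoQ, and in SKBR3 to 39.3 and 69.8 CPM, of which CSF1R made up 38.7 and 68.3 CPM. PTPRC, the pan-leukocyte marker, lay at or under 0.334 CPM in each group mean. The 6 fibroblast and endothelial markers summed to 4.10 and 4.16 CPM in MDA-MB-231 and 24.4 and 28.9 CPM in SKBR3. Of the SKBR3 sums CDH5 made up 17.6 and 22.8 CPM. On principal components within each line, control library 3 of SKBR3 lay at -7.24 on the first component against -24.65 and -23.63 for the other controls and 15.89 to 21.22 for MitoQ. MitoQ library 2 of MDA-MB-231 lay at -32.41 on the second component, against 1.34 to 13.16 for the other MitoQ libraries.

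All 5 genes were low in MDA-MB-231 controls and more than 10-fold higher in each group mean with MitoQ, with no overlap between the groups. The choice of the genes favoured this. In this line 2781 protein-coding genes called higher, with a mean of at least 5 CPM, also had no overlap. The share of all genes without overlap was not computed. Of 15304 genes tested in this line, 29.9% were called higher and 27.6% lower by edgeR at an adjusted p under 0.05. All 5 were among those called higher, which the choice of the genes fixed. In RNA from whole cultures, more cells with a transcript and more RNA per cell cannot be told apart.

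KLHDC7B was close to silent in MDA-MB-231 controls, with 1, 2, 1, 2 and 2 counts in the 5 libraries, or 0.0419, 0.0782, 0.0353, 0.0848 and 0.0806 CPM. With MitoQ it had 287, 254, 193, 276 and 264 counts, or 10.78, 10.98, 9.53, 10.97 and 11.02 CPM. The lowest MitoQ library was 112-fold above the highest control. Summed counts went from 8 to 1274, a ratio of 169 (95% counting interval 85.4 to 392), and the fitted log2 fold change was 7.28 ± 0.18 (SE). The fitted value rests on 8 control counts: with a prior count of 2 in place of the smaller default it was 6.21. Its size is best read from the interval.

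ST6GALNAC3 lay at 1.51, 1.21, 0.848, 1.10 and 1.33 CPM in the control libraries of MDA-MB-231. With MitoQ it lay at 17.4, 19.8, 20.3, 16.7 and 18.5 CPM. The MitoQ libraries were close to each other, with a coefficient of variation of 8.27%, and the lowest was 11.1-fold above the highest control. The means were 1.20 ± 0.248 and 18.5 ± 1.53 CPM (SD, n = 5 and 5), a log2 fold change of 3.95 ± 0.12.

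PIP5KL1 lay at 1.43, 0.821, 1.17, 0.933 and 0.806 CPM in the controls. With MitoQ it lay at 15.4, 10.5, 17.4, 14.1 and 14.5 CPM. It was the most variable of the 5 genes among the MitoQ libraries, with a coefficient of variation of 17.5%, and its lowest value was in MitoQ library 2. The means were 1.03 ± 0.263 and 14.4 ± 2.53 CPM, a log2 fold change of 3.80 ± 0.16, and 3.90 without that library.

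ANKFN1 lay at 2.30, 2.15, 1.94, 2.76 and 1.65 CPM in the controls. With MitoQ it lay at 25.3, 24.6, 25.2, 28.8 and 29.4 CPM. The lowest MitoQ library was 8.93-fold above the highest control. The means were 2.16 ± 0.412 and 26.7 ± 2.25 CPM, a log2 fold change of 3.63 ± 0.10.

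SEL1L3 was the most abundant of the 5, at 6.12, 6.88, 5.97, 6.10 and 5.84 CPM in the controls. With MitoQ it lay at 74.0, 79.0, 72.9, 75.3 and 72.5 CPM. It was also the most uniform, with a coefficient of variation of 3.54% among the MitoQ libraries. The means were 6.18 ± 0.406 and 74.7 ± 2.65 CPM, a log2 fold change of 3.59 ± 0.060. Without MitoQ library 2 the log2 fold changes of KLHDC7B, ST6GALNAC3, ANKFN1 and SEL1L3 were 7.28, 3.94, 3.67 and 3.58.

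**Figure D1:**
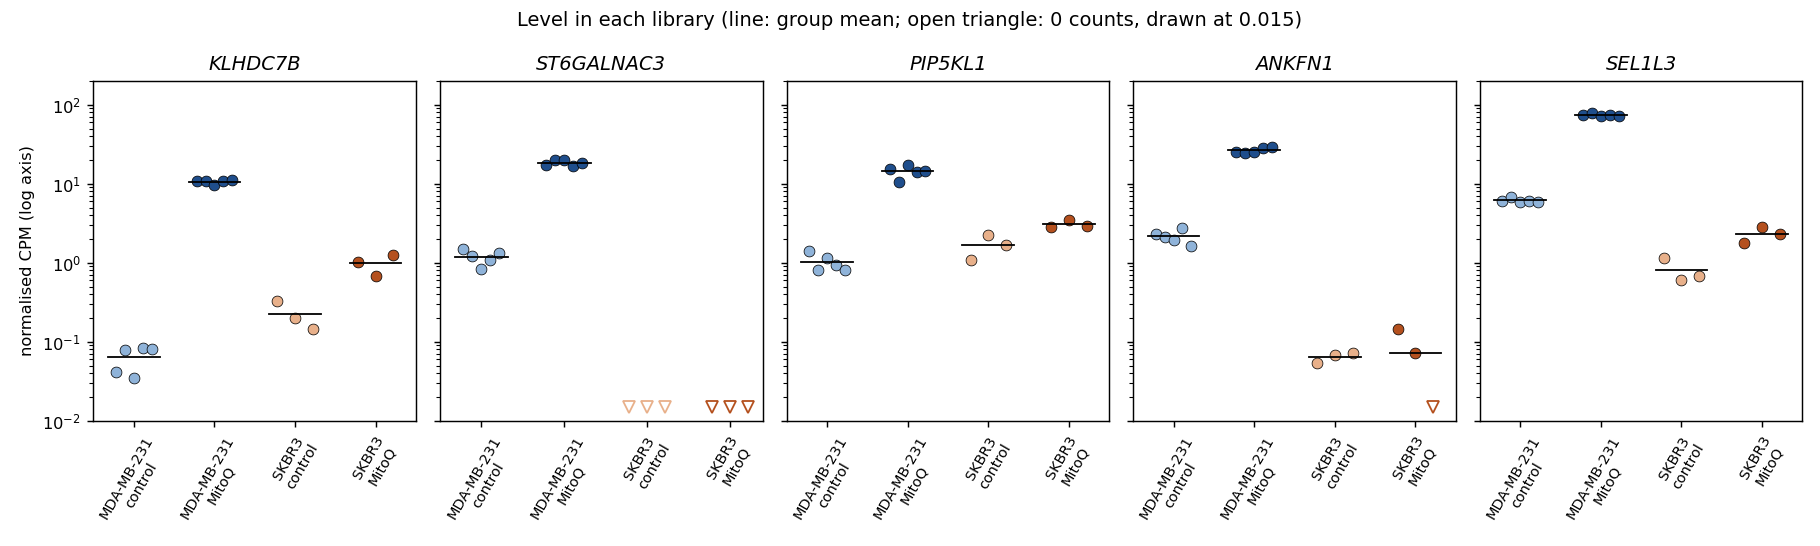
Normalised CPM on a log axis in each library of the 4 groups for the 5 genes, with a line at the group mean and open triangles for libraries with 0 counts. All 5 MitoQ libraries of MDA-MB-231 lie above all 5 controls for each of the 5 genes, which the choice of the genes favoured. In SKBR3 ST6GALNAC3 has no count and ANKFN1 stays at or under 0.145 CPM.

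Scaled by the length of the merged exons, the order of levels in MDA-MB-231 with MitoQ was SEL1L3 at 9.88 ± 0.302 CPM per kb, PIP5KL1 at 4.27 ± 0.761, ANKFN1 at 3.52 ± 0.321, ST6GALNAC3 at 2.53 ± 0.206 and KLHDC7B at 2.06 ± 0.123. PIP5KL1 and ANKFN1 differed by less than the SD of PIP5KL1, and the other neighbours in this order differed by more than the SD of either. In the controls the order was the same, from 0.830 ± 0.0496 for SEL1L3 through 0.310 ± 0.0793 for PIP5KL1, 0.290 ± 0.0564 for ANKFN1 and 0.167 ± 0.0347 for ST6GALNAC3 to 0.0126 ± 0.00465 for KLHDC7B. PIP5KL1 and ANKFN1 were again not separated beyond their spread.

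Ranked by log2 fold change among 2781 genes called higher (protein-coding, mean of at least 5 CPM, groups not overlapping), the 5 genes stood at ranks 1, 5, 7, 9 and 10. The ranks between them were held by S100P, INHBE, PAPPA2, GDF15 and SLC16A1. Just outside the 10 lay UNC5B, a netrin receptor, at 3.56 ± 0.15 and NUPR1, a stress-induced chromatin protein, at 3.29 ± 0.075, beside 3.59 for SEL1L3 just inside.

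The SKBR3 libraries had no part in choosing the genes. In SKBR3, SEL1L3 and PIP5KL1 rose with MitoQ by less than in MDA-MB-231, KLHDC7B was higher with MitoQ from a level near the detection limit, and ST6GALNAC3 and ANKFN1 were absent or near absent in every library. Of 15026 genes tested in SKBR3, 13.8% were called higher and 14.1% lower. The share whose MitoQ libraries all lay above the controls was not computed. Among the 5 genes 3 passed the filter on low counts, and those 3 were called higher and 0 lower. KLHDC7B passed that filter, at 0.506 CPM, in 3 MitoQ libraries and 0 controls, so its call follows in part from the filter and the count of 3 is no support.

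SEL1L3 lay at 1.15, 0.609 and 0.683 CPM in SKBR3 controls (21, 9 and 19 counts) and at 1.79, 2.87 and 2.32 CPM with MitoQ (37, 80 and 44 counts). All 3 MitoQ libraries were above the highest control. The log2 fold change was 1.53 ± 0.28, a 2.89-fold rise (edgeR, adjusted p = 0.00104), and without control library 3 it was 1.40 (adjusted p = 0.00227).

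PIP5KL1 lay at 1.09, 2.23 and 1.69 CPM in SKBR3 controls (20, 33 and 47 counts) and at 2.81, 3.52 and 2.90 CPM with MitoQ (58, 98 and 55 counts). The groups did not overlap, but the lowest MitoQ library was only 1.26-fold above the highest control. The log2 fold change was 0.91 ± 0.23, a 1.87-fold rise (edgeR, adjusted p = 0.00771). Without MitoQ library 2 of SKBR3 it was 0.80 and did not pass (adjusted p = 0.0555), and without control library 3 it was 0.95 (adjusted p = 0.0107).

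KLHDC7B lay at 0.328, 0.203 and 0.144 CPM in SKBR3 controls (6, 3 and 4 counts) and at 1.02, 0.682 and 1.26 CPM with MitoQ (21, 19 and 24 counts). The groups did not overlap. Summed counts went from 13 to 64, a ratio of 4.44 (95% counting interval 2.42 to 8.80), and the log2 fold change was 2.14 ± 0.42 (edgeR, adjusted p = 0.00187). With no filter on low counts it was 2.15 (adjusted p = 3.15e-05), and without control library 3 it was 1.83 (adjusted p = 0.00802).

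ST6GALNAC3 had 0 counts in all 6 SKBR3 libraries, which allows a level of up to 0.0490 CPM over the 3 controls and 0.0446 CPM over the 3 MitoQ libraries. Against these limits it was at least 24.6-fold lower than in MDA-MB-231 among controls and at least 411-fold lower with MitoQ. ANKFN1 had 1, 1 and 2 counts in SKBR3 controls and 3, 2 and 0 with MitoQ, a ratio of 1.13 (95% counting interval 0.243 to 5.69). The ratio in MDA-MB-231, 12.4, lay outside this interval. The interval covers counting error only and not the spread between libraries, so it cannot exclude such a change.

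The line difference in the response was -5.10 ± 0.58 for KLHDC7B, -2.85 ± 0.31 for PIP5KL1 and -2.001 ± 0.26 for SEL1L3 (SKBR3 minus MDA-MB-231 log2 fold change, ± SE), given as a description since it holds the contrast that chose the genes. For ST6GALNAC3 and ANKFN1 it is not given, since their SKBR3 libraries held too few counts, 0 and 9 in total. The lines were also compared by summed counts on a scaling over all 16 libraries, with 95% counting intervals. These ratios, and those given for ST6GALNAC3 above, are a description as well. The choice of the genes favoured low values in MDA-MB-231 controls and high values there with MitoQ. Among controls KLHDC7B was 3.34-fold higher in SKBR3 (1.28 to 9.29), on 13 counts there and 8 in MDA-MB-231. PIP5KL1 was 1.58-fold higher in SKBR3 (1.21 to 2.07), but its control libraries overlapped, at 1.08 to 2.20 CPM in SKBR3 and 0.815 to 1.43 CPM in MDA-MB-231. SEL1L3 was 7.75-fold higher in MDA-MB-231 (5.80 to 10.6) and ANKFN1 33.0-fold (12.7 to 122), the latter on 4 counts in SKBR3, and neither overlapped. With MitoQ all 5 were higher in MDA-MB-231 with no overlap, which the choice of the genes favoured. The share of all genes that did so was not computed. PIP5KL1 was higher there by 4.50-fold (3.90 to 5.22), KLHDC7B by 11.1-fold (8.61 to 14.5), SEL1L3 by 30.7-fold (26.3 to 36.1) and ANKFN1 by 354-fold (151 to 1090). The 8 markers of MDA-MB-231 summed to 23.7 CPM in SKBR3 controls and 45.0 CPM with MitoQ, of which CD44 made up 17.0 and 37.2 CPM, and VIM lay at 0.181 and 0.397 CPM. Of these markers 2 of 5 tested, CD44 and CAV1, were called higher in SKBR3 (40%) and 0 lower, beside 13.8% and 14.1% of all genes. AXL lay at 0.612 and 0.505 CPM and MSN at 1.67 and 1.34 CPM. In MDA-MB-231, 5 of the 8 SKBR3 markers were called higher (62.5%) and 0 lower, beside 29.9% and 27.6% of all genes. The 8 markers summed to 628 CPM in controls and 810 CPM with MitoQ. KRT7 lay at 172 and 342 CPM and SPDEF at 5.98 and 14.3 CPM, while ERBB2 lay at 53.9 and 54.1 CPM and CDH1 at 2.55 and 2.27 CPM. The part of these markers in the results was not tested. ST6GALNAC3, at 18.5 CPM in MDA-MB-231 with MitoQ, had no count in those SKBR3 libraries.

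**Figure D2:**
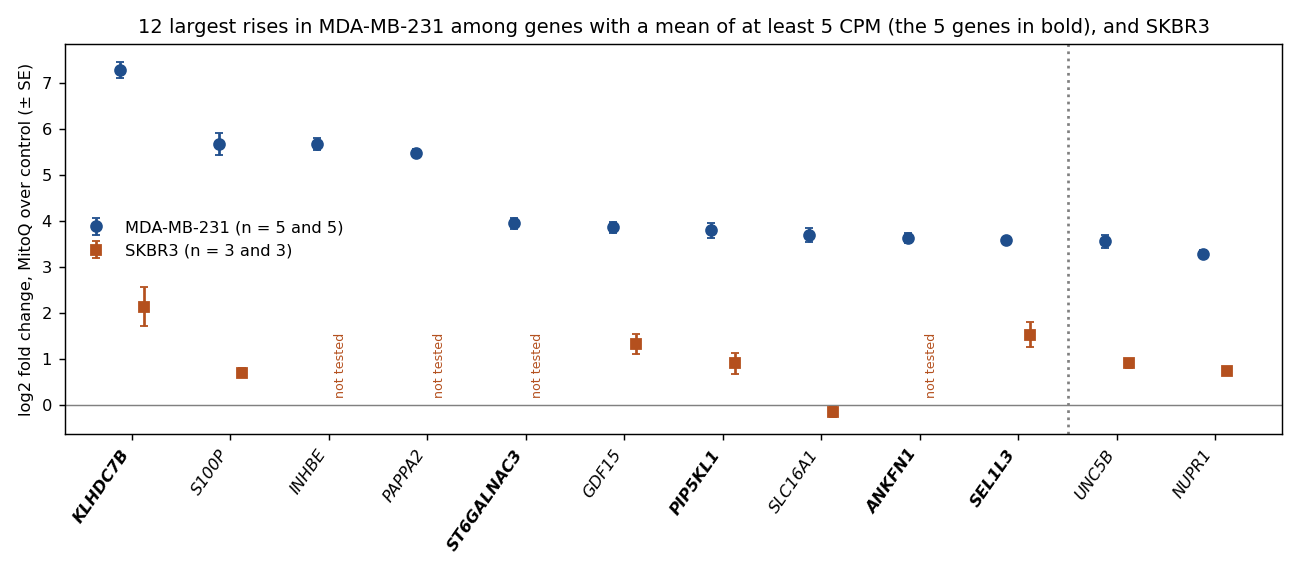
Log2 fold change with SE, MitoQ over control, for the 12 largest rises in MDA-MB-231 among genes whose mean reached 5 CPM (circles) and the same genes in SKBR3 (squares), with the dotted line after rank 10. SEL1L3, PIP5KL1 and KLHDC7B lie at 1.53, 0.91 and 2.14 in SKBR3, and genes written as not tested did not pass the filter on low counts there.

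The other 5 of the 10 genes ranked highest, under the same limit of 5 CPM, also differed among themselves in SKBR3. GDF15, a cytokine secreted under cell stress, rose by a log2 fold change of 1.33 (edgeR, adjusted p = 0.000445) and S100P, a calcium-binding protein, by 0.70 (adjusted p = 0.00324, and 0.0938 with a replicate block). SLC16A1, a lactate transporter, was at -0.14 (adjusted p = 0.355), and INHBE and PAPPA2 did not pass the filter.

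The genes whose level followed each of the 5 most closely over the 16 libraries were found by the root mean squared difference of log2(CPM + 0.5), each gene centred on its own mean, among 13602 protein-coding genes. This measure shares libraries and the contrast that chose the genes, so it is a description. The added 0.5 exceeds the mean of KLHDC7B in MDA-MB-231 controls (0.0642 CPM) and the levels of ST6GALNAC3 and ANKFN1 in SKBR3. It compresses differences at such levels, so the nearest genes may depend on it, and no other value was tried. ST6GALNAC3 and ANKFN1 were each other's nearest gene, with a difference of 0.281, and SEL1L3 was next for both, at 0.398 and 0.445. HKDC1, a hexokinase-like protein, came after them for ST6GALNAC3 (0.424) and for SEL1L3 (0.568), and MKX, a homeobox factor, for ANKFN1 (0.480). KLHDC7B and PIP5KL1 had other companions. GDF15 (0.427) and ASNS, the asparagine synthetase (0.567), were nearest to KLHDC7B, with PIP5KL1 next (0.582). SPNS3, a transporter-like protein (0.338), ASNS (0.415) and PCK2, the mitochondrial phosphoenolpyruvate carboxykinase (0.426), were nearest to PIP5KL1. SPNS3 lay below the limit of the ranking above, at 0.252 ± 0.168 CPM in MDA-MB-231 controls and 5.10 ± 0.951 CPM with MitoQ, a log2 fold change of 4.27 ± 0.26, and it was at 0.10 ± 0.31 in SKBR3 (edgeR, adjusted p = 0.852). Over the 10 pairs among the 5 genes the difference ranged from 0.281 to 1.55, the widest between PIP5KL1 and ANKFN1.

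The genes next to each of the 5 on the chromosome were read from the annotation, 3 on each side. In MDA-MB-231, 9 of 30 such genes were called higher and 7 lower, with a median log2 fold change of -0.002, beside 29.9% and 27.6% of all genes. In SKBR3, 5 of 28 tested were higher (17.9%) and 4 lower (14.3%), beside 13.8% and 14.1% of all genes. None of the 30 changed as much as the gene they neighboured, with values from -1.68 to 1.35 in MDA-MB-231. The choice of the 5 genes for their large rises all but fixed this. Around KLHDC7B, 3 of 6 neighbours were higher and 0 lower in MDA-MB-231, and 4 and 0 in SKBR3. CPT1B, a carnitine palmitoyltransferase, was the weakest of the 3, at 0.28 ± 0.10 in MDA-MB-231 (edgeR, adjusted p = 0.0296), and its call was lost without control library 2 or 5 or MitoQ library 1, 4 or 5 (adjusted p = 0.0607 to 0.0910). TYMP, the thymidine phosphorylase 15835 bases away, had means of 3.07 ± 0.480 and 7.82 ± 1.02 CPM in MDA-MB-231, a log2 fold change of 1.35 ± 0.12 (edgeR, adjusted p = 2.55e-08), and rose by 0.78 ± 0.090 in SKBR3 (adjusted p = 5.14e-05). ODF3B, 13311 bases away, was at 1.25 ± 0.28 in MDA-MB-231 (adjusted p = 0.000805) and 1.47 ± 0.42 in SKBR3 (adjusted p = 0.0177). Its means were low, at 0.415 and 0.985 CPM in MDA-MB-231 and 0.287 and 0.913 CPM in SKBR3. In SKBR3 only the MitoQ mean was past the filter of 0.506 CPM. The SKBR3 call was lost without control library 2 (adjusted p = 0.0525), MitoQ library 1 (0.0559) or MitoQ library 3 (0.0644). ODF3B overlaps TYMP, and the neighbour CHKB-CPT1B overlaps CPT1B and CHKB, so reads may have been divided between overlapping genes.

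Around ANKFN1, 3 of 6 neighbours were lower and 0 higher in MDA-MB-231. NOG, the BMP antagonist noggin 82040 bases away, fell from 22.5 ± 1.53 to 7.01 ± 0.765 CPM (log2 -1.68 ± 0.079, edgeR, adjusted p = 1.73e-12) and was near 0 in SKBR3. Beside PIP5KL1 lie ST6GALNAC4 and ST6GALNAC6, sialyltransferases of the same family as ST6GALNAC3. ST6GALNAC6, 15471 bases from PIP5KL1, fell from 20.2 ± 1.30 to 11.4 ± 1.42 CPM in MDA-MB-231 (log2 -0.82 ± 0.081, adjusted p = 6.55e-08), while ST6GALNAC4 was at -0.08 (adjusted p = 0.402). ST6GALNAC5, the next gene to ST6GALNAC3 at 232840 bases, fell by 0.62 ± 0.13 on the log2 scale (adjusted p = 0.000298). SMIM20, on the opposite strand over the SEL1L3 locus, rose by 0.40 ± 0.070 in MDA-MB-231 (adjusted p = 7.59e-05) and was at -0.24 in SKBR3 (adjusted p = 0.231).

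**Figure D3:**
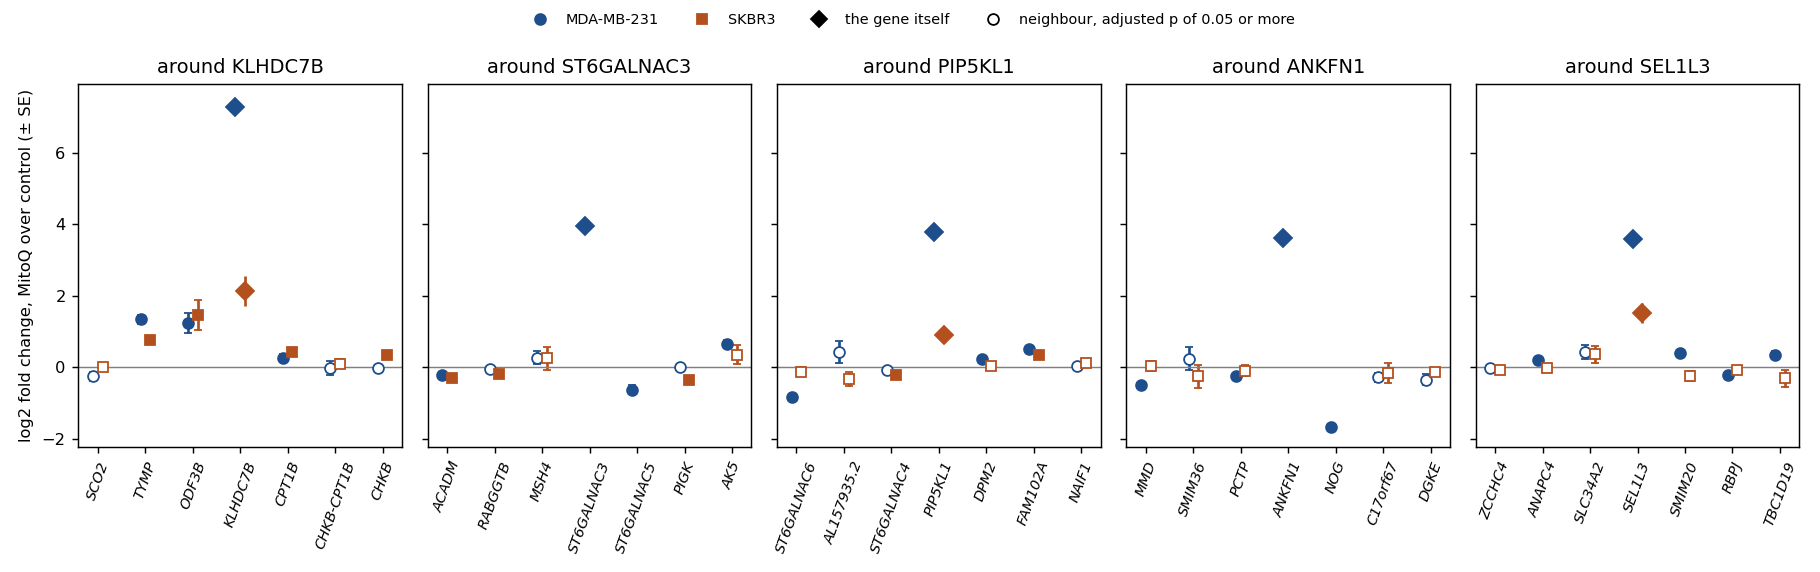
Log2 fold change with SE, MitoQ over control, of each of the 5 genes (diamonds) and its 3 neighbours on each side in order along the chromosome, in MDA-MB-231 (circles) and SKBR3 (squares); filled neighbours passed an adjusted p under 0.05. The neighbours lie between -1.68 and 1.35 in MDA-MB-231, below the gene between them in all 5 panels, which the choice of the 5 genes all but fixed.

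Genes related to the 5 by family or pathway were counted with the 5 left out. Over 6 lists, 67 of 177 tested genes were higher (37.9%) and 46 lower (26.0%) in MDA-MB-231, beside 29.9% and 27.6% of all genes, and with plain library totals 77 were higher and 36 lower. In SKBR3 32 of 174 were higher (18.4%) and 24 lower (13.8%), beside 13.8% and 14.1% of all genes. The SKBR3 number called fell from 56 to 33 without MitoQ library 2. The median over all genes was 0.012 in MDA-MB-231 and -0.001 in SKBR3, and all of the list medians in either line lay between -0.155 and 0.232.

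Of the kelch-repeat genes, 19 of 43 were higher (44.2%, against 29.9% of all genes) and 9 lower (20.9%, against 27.6%) in MDA-MB-231, with a median of 0.113. In SKBR3 9 of 42 were higher (21.4%, against 13.8%) and 6 lower (14.3%, against 14.1%), with a median of 0.048. KLHL35 (1.40 ± 0.17, adjusted p = 8.18e-07) and KLHL24, a substrate receptor of a cullin ligase (1.01 ± 0.10, adjusted p = 1.01e-07), led in MDA-MB-231. KLHDC7A, the closest relative of KLHDC7B, was at 0.0409 and 0.0234 CPM in MDA-MB-231 and was not tested there. In SKBR3 it went from 3.77 ± 0.447 to 4.71 ± 0.428 CPM, without passing the test (log2 0.32 ± 0.15, edgeR adjusted p = 0.122).

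Of the sialic acid genes, 5 of 22 were higher and 5 lower in MDA-MB-231 (22.7% each, against 29.9% and 27.6% of all genes), with a median of -0.078. In SKBR3 2 of 21 were higher (9.52%, against 13.8%) and 3 lower (14.3%, against 14.1%), with a median of -0.092. ST6GALNAC2, a sialyltransferase of O-glycans, rose from 0.733 ± 0.279 to 3.47 ± 0.784 CPM in MDA-MB-231 (log2 2.22 ± 0.23, adjusted p = 1.52e-07) and was at -0.20 in SKBR3 (adjusted p = 0.585). ST6GAL1, which sialylates N-glycans, rose from 21.4 ± 2.29 to 45.4 ± 2.50 CPM (log2 1.08 ± 0.069, adjusted p = 1.26e-10). In MDA-MB-231 the ST6GALNAC family thus moved in both directions, with ST6GALNAC2 and ST6GALNAC3 higher and ST6GALNAC5 and ST6GALNAC6 lower. ST6GALNAC1 was at most at 0.170 CPM in any group mean. Of the ganglioside and O-glycan core genes 6 of 23 were higher (26.1%, against 29.9% of all genes) and 12 lower (52.2%, against 27.6%) in MDA-MB-231, with a median of -0.155. Among them were the O-glycan initiating enzymes GALNT12 (1.34 ± 0.20, adjusted p = 1.01e-05), GALNT16 (-1.18 ± 0.11, adjusted p = 4.89e-08) and GALNT5 (-1.03 ± 0.12, adjusted p = 4.14e-06). In SKBR3 5 of 21 were higher (23.8%, against 13.8%) and 1 lower (4.76%, against 14.1%), with a median of 0.013. There A4GALT, which makes globotriaosylceramide, rose by 1.23 ± 0.21 (adjusted p = 0.000581).

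Of the phosphoinositide genes, 14 of 43 were higher (32.6%, against 29.9% of all genes) and 10 lower (23.3%, against 27.6%) in MDA-MB-231, with a median of 0.050. In SKBR3 9 of 44 were higher (20.5%, against 13.8%) and 5 lower (11.4%, against 14.1%), with a median of 0.007. The kinases that PIP5KL1 resembles did not pass the test in MDA-MB-231: PIP5K1A was at 0.08 ± 0.047 (adjusted p = 0.168), PIP5K1B at 0.06 ± 0.15 (adjusted p = 0.774) and PIP5K1C at -0.01 ± 0.071 (adjusted p = 0.928). In SKBR3 PIP5K1C rose by 0.40 ± 0.065 (adjusted p = 0.000435). INPP5D, a phosphatase of phosphatidylinositol 3,4,5-trisphosphate, fell by 1.30 ± 0.21 in MDA-MB-231 (adjusted p = 3.54e-05), and PIK3CD, a class I kinase, was at -0.34 in MDA-MB-231 (adjusted p = 0.000139) and 1.13 in SKBR3 (adjusted p = 5.91e-06).

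Of the clock genes, 13 of 23 were higher (56.5%, against 29.9% of all genes) and 3 lower (13.0%, against 27.6%) in MDA-MB-231, with a median of 0.232. In SKBR3 5 of 23 were higher (21.7%, against 13.8%) and 1 lower (4.35%, against 14.1%), with a median of 0.082. The leading rises in MDA-MB-231 were HLF, a PAR-domain factor (1.03 ± 0.14, adjusted p = 3.96e-06), NR1D1, a repressor of the clock (0.76 ± 0.084, adjusted p = 3.15e-07), and ARNTL, the partner of CLOCK (0.54 ± 0.064, adjusted p = 6.48e-07). Of the SEL1L and ERAD genes, 10 of 23 were higher (43.5%, against 29.9% of all genes) and 7 lower (30.4%, against 27.6%) in MDA-MB-231, with a median of -0.017. In SKBR3 2 of 23 were higher (8.70%, against 13.8%) and 8 lower (34.8%, against 14.1%), with a median of -0.085. SEL1L itself rose from 142 ± 4.97 to 204.0 ± 15.5 CPM in MDA-MB-231 (log2 0.52 ± 0.051, adjusted p = 6.05e-08) and fell from 176 ± 1.57 to 152 ± 2.42 CPM in SKBR3 (log2 -0.21 ± 0.036, adjusted p = 0.000548). HERPUD1, which recruits the HRD1 complex, rose by 1.01 ± 0.047 in MDA-MB-231 (adjusted p = 1.31e-12), and VCP, the ATPase that extracts ERAD substrates, fell by 0.66 ± 0.045 (adjusted p = 3.15e-10).

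**Figure D4:**
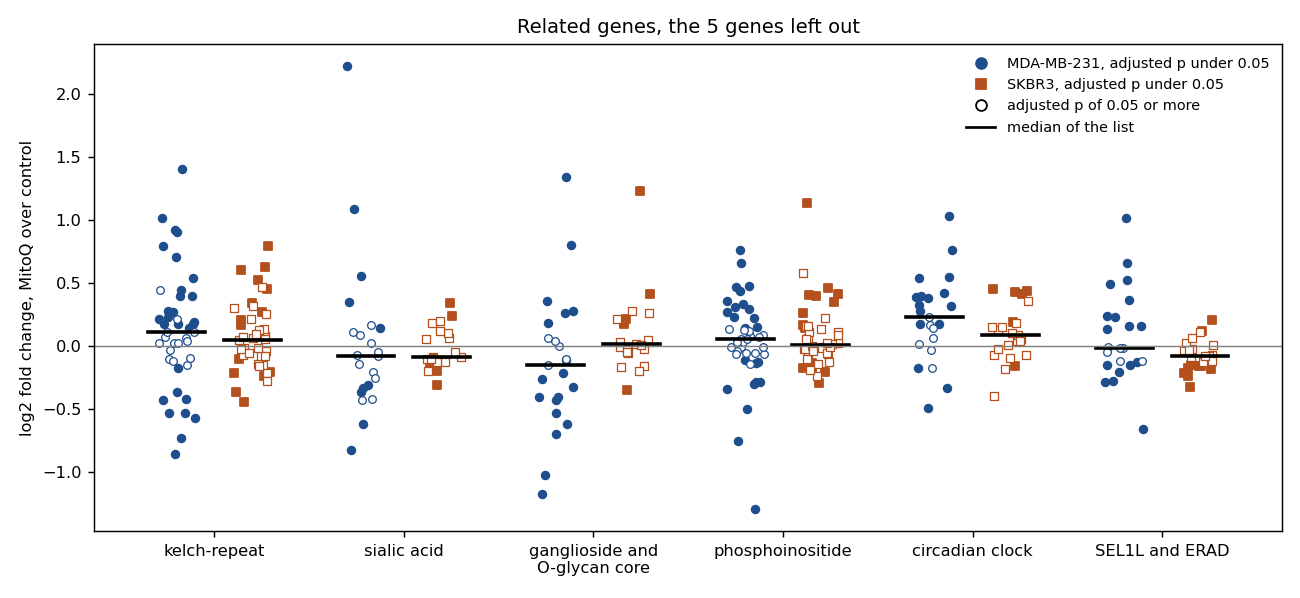
Log2 fold change, MitoQ over control, of the tested genes of 6 lists related to the 5 genes, which are left out, in MDA-MB-231 (circles) and SKBR3 (squares), with filled symbols for an adjusted p under 0.05 and a line at the median. Each median lies between -0.155 and 0.232, and ST6GALNAC2 at 2.22 is the highest point.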

How the data were processed

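The values are estimated counts per gene as deposited by the authors, whole numbers with different totals per library; per the submitters' processing notes they used Salmon, edgeR and the build GRCh38. No source used here gives their versions, the annotation release, how transcripts were summed to genes, or whether values were rounded. Of 35106 rows, 35003 matched GENCODE release 29 by ID and 8866 had no count. The names of the SKBR3 columns also carry the number of the other line, and markers matched SKBR3.

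Genes were kept with filterByExpr (minimum count 10), scaled with TMM and tested within each line with edgeR 4.0.16 in R 4.3.3 (robust quasi-likelihood, two-sided), with Benjamini-Hochberg adjustment over all genes tested and a threshold of 0.05. The SE of a log2 fold change is its size divided by the root of F. The script was tested on simulated data in which far fewer genes changed than were called here. Ratios of summed counts have exact binomial 95% intervals; a count of 0 allows up to 3 counts. Both cover counting error only.

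The 5 genes and the lists were chosen with earlier results of these data known. Besides them the text draws on the nearest 3 genes on each side, the 3 called genes with the largest change per list and line, close paralogs, the 3 nearest profiles (mean of at least 1 CPM), the other 5 of the 10 largest rises and ranks 11 and 12. Alternatives were RLE factors, plain totals, DESeq2 1.42.0, a filter at 1 CPM or none, the replicate block, 1 fit of all 16 libraries, a threshold of 0.01, a prior count of 2 and each library left out.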

Additional observations from a re-analysis of the deposited data

Results flagged for a closer look

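In 10 groups of 5 libraries (the 5 genes in the 2 MDA-MB-231 groups), 2 had a library far from the others: KLHDC7B was lowest in MitoQ library 3 of MDA-MB-231, at 9.53 CPM, and SEL1L3 was highest in control library 2, at 6.88 CPM. Chance flags about 1 in 20 such groups, and groups of 3 were not checked.

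Of 84 named genes checked, with the chosen genes included, 6 had values on opposite sides of control in the 2 lines, in every library. The difference itself was not tested. In SKBR3, SMIM20 (adjusted p = 0.231) and HLF (adjusted p = 0.149) did not pass edgeR's test. SMIM20 had a log2 fold change of 0.40 in MDA-MB-231 and -0.24 in SKBR3. SEL1L was at 0.52 and -0.21, and FAM8A1, another ERAD component, at 0.66 and -0.24. GNE, the enzyme that starts sialic acid synthesis, was at -0.33 and 0.34. PIK3CD was at -0.34 and 1.13, and HLF at 1.03 and -0.19.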

How the results depend on the processing

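SEL1L3 in SKBR3 kept its direction and its call in all 14 alternatives, with log2 fold changes of 1.35 to 1.84. KLHDC7B kept both in the 12 that gave it a test, with 1.83 to 2.51. Since KLHDC7B passed the filter on low counts in 3 MitoQ libraries and 0 controls, its kept call is no support. PIP5KL1 was called in 13 of 14; with single libraries left out it ranged from 0.70 to 1.13, and without MitoQ library 2 it was 0.80 (adjusted p = 0.0555). The count called higher was 2 with DESeq2, which gave KLHDC7B no adjusted p, 2 with the filter at 1 CPM, which removed KLHDC7B, and 2 without MitoQ library 2. The related genes called in SKBR3 numbered 56, and 33 at a threshold of 0.01, where a stricter threshold passes fewer genes. With single libraries left out they ranged from 33 to 56; the cause was not tested. In MDA-MB-231 the log2 fold change of KLHDC7B ranged from 6.21 to 7.39. None of the called results changed sign in any alternative run. Of 90 calls of other named genes, 19 were lost in at least 1 alternative besides the threshold of 0.01.

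Replicate numbers did not pair the libraries: same-numbered libraries correlated at -0.046 to 0.019 and 0 of 8 matched their own number best. With the replicate block KLHDC7B, PIP5KL1 and SEL1L3 in SKBR3 were at 2.20, 0.89 and 1.502 (edgeR, adjusted p = 0.000593, 0.00219 and 0.00051). All 3 were called, but that count is no support, since KLHDC7B passed the filter only in MitoQ libraries. Depth limits ANKFN1 and ST6GALNAC3 in SKBR3, with 9 and 0 counts over 6 libraries.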
